A study of Caenorhabditis elegans with 2 samples.

Results

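snoRNA genes were examined for binding of SPR-3 in whole Caenorhabditis elegans larvae. The members were every gene that the Ensembl annotation of the nuclear chromosomes (release 115, assembly WBcel235) classes as snoRNA, which gave 346 of 46890 annotated genes. They were 54 to 344 bp long, with a median of 130 bp. ChIP-seq had been performed with an anti-GFP antibody on 2 biological replicates of strain OP703. This strain carries the unc-119(tm4063) mutation and the transgene wgIs703, in which spr-3 is fused to TY1, EGFP and 3xFLAG next to an unc-119(+) copy. Both replicates were pooled males and females at the L4 stage, 49 hours of age, synchronised by starvation at L1 after bleaching, with chromatin sheared by sonication. This was the only group. An untagged strain was not analysed here, and the labels do not say whether the endogenous spr-3 gene was intact or which cells express the transgene. Each replicate and the pool of both had been called against the same control alignment.

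snoRNAs are small nucleolar RNAs that guide chemical modification of ribosomal RNA and other RNAs. Box C/D snoRNAs guide methylation of the ribose, and box H/ACA snoRNAs guide conversion of uridine to pseudouridine. Each class works inside a particle with its own set of core proteins. Animal snoRNA genes often lie in introns of other genes and are then processed from the spliced intron, while others are transcribed from promoters of their own by RNA polymerase II or RNA polymerase III. RNA polymerase III promoters of the tRNA type hold an A box and a B box, and its transcripts end at a run of T. SPR-3 has C2H2 zinc fingers, and its gene is known from mutations that suppress presenilin mutations in the worm.

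A snoRNA gene was counted as thresholded when a summit of the authors' reproducible list of 945 intervals lay inside it or within 200 bp of it. This held for 72 snoRNA genes. The sequences just upstream of these genes are shown first, because short words recurred there. Each sequence below runs 5′ to 3′ on the strand of the gene, from 100 bp before the 5′ end through the first 10 bases of the snoRNA (genome WBcel235, RefSeq sequence). In the first 8, the capitals mark TGGCNNAG, the core letters of an A box, followed by GTTCNANNC, the letters of a B box with 1 more position left free. These 8 are examples from the 12 thresholded genes with both words, and not the 8 of highest signal.
T03F7.8 (chrV:11314158-11314267, plus strand): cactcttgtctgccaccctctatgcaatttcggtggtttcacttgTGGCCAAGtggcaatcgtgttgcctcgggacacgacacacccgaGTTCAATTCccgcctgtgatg
W03C9.9 (chrII:11960798-11960907, plus strand): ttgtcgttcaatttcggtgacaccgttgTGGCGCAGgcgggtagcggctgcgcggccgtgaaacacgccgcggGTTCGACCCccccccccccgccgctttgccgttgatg
Y43F8C.22 (chrV:19643178-19643287, minus strand): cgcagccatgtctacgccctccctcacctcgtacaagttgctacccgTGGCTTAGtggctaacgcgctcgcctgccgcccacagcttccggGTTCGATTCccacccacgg
F32E10.10 (chrIV:7574022-7574131, plus strand): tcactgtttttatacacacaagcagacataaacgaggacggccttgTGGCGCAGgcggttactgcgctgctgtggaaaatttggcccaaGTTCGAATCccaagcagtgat
F55A11.10 (chrV:11782892-11783001, plus strand): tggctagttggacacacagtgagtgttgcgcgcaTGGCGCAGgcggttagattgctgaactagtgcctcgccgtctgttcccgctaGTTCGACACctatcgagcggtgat
C04G6.12 (chrII:5105222-5105331, minus strand): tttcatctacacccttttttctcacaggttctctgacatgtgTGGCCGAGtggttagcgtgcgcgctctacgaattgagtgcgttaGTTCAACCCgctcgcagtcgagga
T10B9.11 (chrII:9774825-9774934, minus strand): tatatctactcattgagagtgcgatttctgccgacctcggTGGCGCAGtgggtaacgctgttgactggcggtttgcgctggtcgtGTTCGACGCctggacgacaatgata
ZK546.18 (chrII:4942510-4942619, minus strand): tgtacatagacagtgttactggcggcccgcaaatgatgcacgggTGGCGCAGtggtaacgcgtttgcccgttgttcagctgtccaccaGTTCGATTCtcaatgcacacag

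The next 6 sequences cover the same window of thresholded genes that held neither box word. Their capitals mark GGAACC or TGTCGGC, words that were picked because they recurred in these sequences. Of the 5 thresholded genes with both words, only T26A8.6 is shown. ZK994.7, the snoRNA gene of highest signal, is also among the 6.
ZK994.7 (chrV:8500479-8500588, plus strand): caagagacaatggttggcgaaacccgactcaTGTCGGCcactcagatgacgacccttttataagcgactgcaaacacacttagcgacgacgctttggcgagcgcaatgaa
Y53F4B.47 (chrII:15025884-15025993, minus strand): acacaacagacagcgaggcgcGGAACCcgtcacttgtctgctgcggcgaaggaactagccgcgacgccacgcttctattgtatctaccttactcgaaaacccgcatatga
Y55F3BR.9 (chrIV:867124-867233, minus strand): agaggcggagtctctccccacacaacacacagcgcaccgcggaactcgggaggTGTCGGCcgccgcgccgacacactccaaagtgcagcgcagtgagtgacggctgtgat
F01D5.12 (chrII:14018432-14018541, minus strand): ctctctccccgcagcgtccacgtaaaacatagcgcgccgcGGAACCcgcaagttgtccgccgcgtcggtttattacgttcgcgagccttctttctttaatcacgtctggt
T26A8.6 (chrIV:8428730-8428839, minus strand): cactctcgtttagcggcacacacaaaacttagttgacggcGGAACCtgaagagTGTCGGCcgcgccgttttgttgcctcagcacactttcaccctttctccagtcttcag
C16D9.11 (chrV:8228960-8229069, minus strand): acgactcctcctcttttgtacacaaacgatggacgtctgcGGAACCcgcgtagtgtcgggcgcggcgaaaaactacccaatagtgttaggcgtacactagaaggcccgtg

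C51F7.4 had the highest signal among thresholded genes with none of these words upstream. Its summit is shared with C51F7.3, which has GTTCNANNC at -44 bp from its own 5′ end, and that word lies within C51F7.4. The C51F7.4 sequence is followed by 3 snoRNA genes over their whole length: ZK994.7 with no letters marked, C51F7.3 with the C box (TGATG) and D box (CTGA) letters in capitals, and Y43F8C.22 with its ACA trinucleotide in capitals.
C51F7.4 (chrV:12303499-12303608, plus strand): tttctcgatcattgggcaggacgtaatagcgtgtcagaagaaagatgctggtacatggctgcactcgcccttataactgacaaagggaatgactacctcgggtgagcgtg
ZK994.7, whole gene (chrV:8500579-8500645, plus strand): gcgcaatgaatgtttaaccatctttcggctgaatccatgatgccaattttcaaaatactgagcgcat
C51F7.3, whole gene (chrV:12303708-12303783, plus strand): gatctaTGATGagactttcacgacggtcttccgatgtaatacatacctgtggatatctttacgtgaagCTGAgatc
Y43F8C.22, whole gene (chrV:19643050-19643187, minus strand): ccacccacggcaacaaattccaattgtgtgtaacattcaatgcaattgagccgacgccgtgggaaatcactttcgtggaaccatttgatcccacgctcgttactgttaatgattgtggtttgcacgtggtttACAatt

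A summit of the thresholded list lay within 200 bp of 72 of the 346 snoRNA genes, or 20.8% (95% exact binomial interval 16.7 to 25.5). Over all annotated genes the share was 2.7%. Many annotated genes are far longer than a snoRNA, so windows of the median snoRNA length placed at the 5′ ends of the 19973 protein-coding genes gave a second background, which was 1.22%. With a limit of 100 or 500 bp this background was 0.626% or 2.36%, and 69 or 81 snoRNA genes were thresholded. The intervals here and below are Clopper-Pearson intervals over genes and cover counting error only. No test was run, since there was 1 group and the genes were chosen with earlier results of these data known. The longer pooled candidate list, which by the authors' description includes background, had a summit at 162 snoRNA genes (46.8%, 41.5 to 52.2). There the background was 32% of all annotated genes and 18.9% of the protein-coding windows.

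The signal is the peak caller's value for an interval, on a scale that is not stated, so its levels are compared only within a list. At thresholded snoRNA genes the pooled signal had a median of 247.4 and ran from 140.5 to 753.2, with quartiles of 185.9 and 307.0. All 945 thresholded intervals had a median of 183.7 and a maximum of 2033. The snoRNA genes held ranks 9 to 903 in that list, with a median rank of 224.5. The 90 snoRNA genes with a candidate below the threshold had pooled signals of 44.1 to 137.8, with a median of 67.6. The 72 genes were marked by 71 different best summits, since C51F7.3 and C51F7.4 shared one.

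ZK994.7 (chrV:8500579-8500645, plus strand) had the highest signal of all snoRNA genes. It lies in an intron of pxn-1, which encodes a peroxidasin, on the strand of its host. Its signal was 387.5 in replicate 1, 360.9 in replicate 2 and 753.2 in the pool, where it ranked 9. Its rank was 12 among the candidates of replicate 1 and 10 among those of replicate 2, and the summit lay at -27 bp, counted from its 5′ end with negative values upstream. C51F7.3 and C51F7.4 lie side by side within frm-7, a gene for a FERM domain protein (chrV:12303599-12303693 and chrV:12303708-12303783 for C51F7.4 and C51F7.3). Their shared summit had signals of 307.3, 267.7 and 580.0 in replicate 1, replicate 2 and the pool. It fell at 37 bp from the 5′ end of C51F7.4, inside that gene, and at -72 bp from that of C51F7.3, so the interval cannot be assigned to either gene alone.

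Independent snoRNA genes, those neither within an intron nor touching an exon of a protein-coding gene, were led by Y53F4B.47 (chrII:15025814-15025893, minus strand). Its signal was 242.9 in replicate 1, 248.5 in replicate 2 and 488.8 in the pool. ZK265.10, on chromosome I, followed with 222.1, 235.8 and 457.8. W03C9.9, a box C/D gene by its sequence, had 248.9, 207.2 and 452.5. In all 3 the summit was upstream of the snoRNA, at -74, -78 and -58 bp. The first 2 of these summits also lay in promoter windows of protein-coding genes, those of cmtr-1 and sre-23, so they cannot be assigned to the snoRNA gene alone. Y75B12B.12, with a pooled signal of 409.5, had its summit inside the gene, at 26 bp, and in the promoter window of Y75B12B.11. T06C12.16, T19B4.8 and Y23H5B.10 had pooled signals of 376.1, 345.7 and 342.3, and their summits lay upstream at -53, -35 and -45 bp.

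T03F7.8 led the snoRNA genes that lie in an intron on the strand opposite to the host. It is a box C/D gene within cutl-18, a cuticlin-like gene, and its signal was 252.1 in replicate 1, 231.8 in replicate 2 and 487.7 in the pool. ZK484.9, in an intron of the ABC transporter gene haf-9, had 153.0, 163.8 and 319.8. B0334.12, within the potassium channel gene twk-5, had 131.1, 179.8 and 306.0, and its summit lay at 154 bp, the farthest downstream of all thresholded snoRNA genes. Y43F8C.22, a box H/ACA gene on the host strand of Y43F8C.7, had 188.1, 170.4 and 359.4. Y38F2AR.14 on chromosome IV had 165.5, 177.3 and 341.0, and F30H5.4, the highest on chromosome III, had 180.1, 150.8 and 323.6. Among genes that touch an exon, T02E1.9 in the sperm gene spe-12 and F39B2.14 in tmem-107 followed C51F7.4, with pooled signals of 339.2 and 263.8. The summit at T02E1.9 also lay in the promoter window of T02E1.2, and that at F39B2.14 in those of tmem-107 and rps-26. Neither summit can be assigned to the snoRNA gene alone.

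Thresholded snoRNA genes were found in every location class. They were 33 of 124 independent genes (26.6%, 19.1 to 35.3), 23 of 142 intronic genes on the host strand (16.2%, 10.6 to 23.3), 8 of 27 intronic genes on the opposite strand (29.6%, 13.8 to 50.2) and 8 of 53 genes touching an exon (15.1%, 6.75 to 27.6). These intervals overlapped, and all 4 shares were above the 2.7% of all annotated genes. The median pooled signal of the thresholded genes was 217.1, 256.6, 262.5 and 212.8 in the same order. Candidates were present at 62 (50%, 40.9 to 59.1), 60 (42.3%, 34.0 to 50.8), 15 (55.6%, 35.3 to 74.5) and 25 (47.2%, 33.3 to 61.4) genes of these classes. The candidate share of all annotated genes was 32%. The intervals for the host strand and for genes touching an exon began close to that share.

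**Figure D1:**
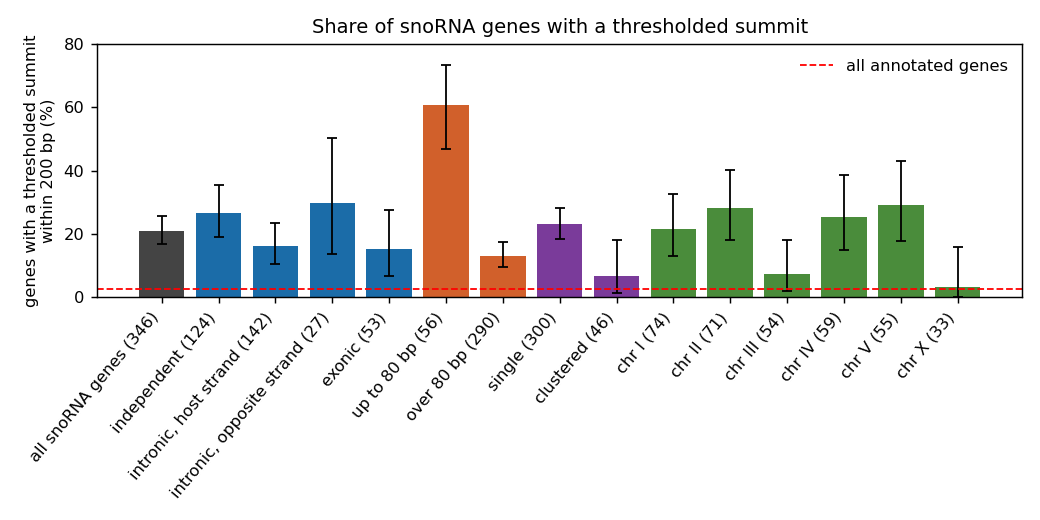
Bars give the percent of snoRNA genes with a thresholded summit within 200 bp, by location, length, clustering and chromosome, with the number of genes in parentheses. Error bars are exact 95% binomial intervals over genes and the dashed line is the share of all annotated genes; genes up to 80 bp long stand at 60.7% and those on chromosome X at 3.03%.

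Hosted snoRNA genes were mostly far from the start of their host. Of the 39 thresholded genes with a host, 1 had its summit in the host's promoter window, which reached from 1000 bp before to 200 bp after the host's 5′ end. That gene was F39B2.14 in tmem-107, and its summit also lay in the promoter window of rps-26. The 23 thresholded genes on the host strand lay 843 to 16071 bp from the start of the host, with a median of 2889 bp. For the 119 that were not thresholded the median was 1408 bp. The introns that held them had median lengths of 341 and 390 bp.

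Ribosomal protein genes, which host snoRNAs in many animals, hosted 19 snoRNA genes, and 0 of these were thresholded (interval 0 to 17.6%). That interval includes the 2.7% of all annotated genes, so no lack can be read from the 0. A pooled candidate was present at 7 of the 19 (36.8%), near the 32% of all annotated genes. With a limit of 500 bp in place of 200 bp, 4 of the 19 were thresholded, against 2.36% of the protein-coding windows. Genes for translation factors or tRNA synthetases hosted 6, of which 1 was thresholded (16.7%, 0.421 to 64.1). This was T08B2.13, in fars-1 for phenylalanyl-tRNA synthetase, with signals of 84.5 in replicate 1, 124.1 in replicate 2 and 217.4 in the pool. Its summit also lay in the promoter window of mrpl-23, so it cannot be assigned to the snoRNA gene alone. Other named protein-coding genes hosted 162 with 28 thresholded (17.3%, 11.8 to 24.0). Hosts known by a sequence name only held 35 with 10 thresholded (28.6%, 14.6 to 46.3). The interval for ribosomal protein hosts overlapped both of these.

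Promoter windows of any protein-coding gene held the summit of 21 of the 72 thresholded snoRNA genes. These were 14 of 33 independent genes, 4 of 23 on the host strand, 0 of 8 on the opposite strand and 3 of 8 touching an exon. At these 21 genes the summit cannot be assigned to the snoRNA gene alone. None of the 72 had its summit within 200 bp of an annotated tRNA or snRNA gene (0 of 72, interval up to 4.99%). Without summits in promoter windows or near tRNA and snRNA genes, 51 snoRNA genes remained, 19 of them independent. The same removal left 361 of the 945 thresholded intervals. The share of all thresholded intervals in promoter windows alone is not given here. After the removal 0.0651% of the protein-coding windows were thresholded. These windows lie inside the removed promoter windows, so that share cannot serve as a background for the 51 genes.

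Short snoRNA genes made up much of the thresholded set. Of the 56 members up to 80 bp long, 34 were thresholded (60.7%, 46.8 to 73.5), against 38 of the 290 longer ones (13.1%, 9.44 to 17.5). The limit of 80 bp was chosen after the data were seen, so the split is given as a description with no test. It ran the same way in each location class. Among independent genes 15 of 20 short and 18 of 104 long members were thresholded, among intronic genes on the host strand 11 of 25 and 12 of 117, on the opposite strand 6 of 9 and 2 of 18, and among those touching an exon 2 of 2 and 6 of 51. The thresholded genes had a median length of 87.5 bp, against 133 bp for those with a candidate only and 133 bp for those with none. Pooled signals of thresholded short and long genes overlapped, with medians of 250.9 and 238.9.

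Box classes were read from the sequence. A gene was called box C/D with TGATG in its first 25 and CTGA in its last 25 bases, and box H/ACA with no such call and ACA in its last 6 bases. Of 24 box C/D genes 11 were thresholded (45.8%, 25.6 to 67.2), and of 77 box H/ACA genes 16 (20.8%, 12.4 to 31.5). The other 245 could not be classed this way, and 45 of them were thresholded (18.4%). The box C/D genes had a median length of 79 bp and the box H/ACA genes of 133 bp. Up to 80 bp, 7 of 13 box C/D genes and 27 of 43 others were thresholded, and above 80 bp 4 of 11 and 34 of 279. The intervals of the short and long groups overlapped for box C/D genes (25.1 to 80.8% and 10.9 to 69.2%) and not for the others (46.7 to 77.0% and 8.59 to 16.6%). A wider search for the same boxes gave 13 of 33 and 21 of 98.

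Neighbours at most 1000 bp apart on either strand formed 21 clusters of snoRNA genes with 46 members, of which 18 clusters held 2 genes, 2 held 3 and 1 held 4. Of the 46 genes 3 were thresholded (6.52%, 1.37 to 17.9), namely C51F7.3, C51F7.4 and C27H5.9, against 69 of 300 single genes (23.0%, 18.4 to 28.2) and 2.7% of all annotated genes. No gene in the clusters of 3 or 4 was thresholded. Candidates were present at 18 of the 46 clustered genes (39.1%, 25.1 to 54.6), against 32% of all annotated genes. Both intervals for clustered genes include the share of all annotated genes.

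By chromosome, 16 of 74 snoRNA genes were thresholded on I, 20 of 71 on II (28.2%, 18.1 to 40.1), 4 of 54 on III (7.41%, 2.06 to 17.9), 15 of 59 on IV, 16 of 55 on V (29.1%, 17.6 to 42.9) and 1 of 33 on X (3.03%, 0.0767 to 15.8). This pattern was noticed in the data. The share of all annotated genes, 2.7%, lay inside the intervals for III and X. The 1 on X was C53B7.8, an independent gene with signals of 116.7 in replicate 1, 95.6 in replicate 2 and 214.9 in the pool. It was called box H/ACA by the sequence rule alone, and its 71 bp is the shortest length in that class. Candidates were present at 8 of the 33 genes on X (24.2%) and at 27 of the 54 on III (interval 36.1 to 63.9%), against 32% of all annotated genes. tRNA genes were thresholded at 93 of 276 on X (33.7%, 28.1 to 39.6) and at 24 of 64 on III. The counts on X and III are small, and 2 genes on X were thresholded with a limit of 500 bp or from replicate 2 alone.

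Summits of thresholded snoRNA genes lay mostly just upstream of the gene. Measured from the 5′ end on the strand of the snoRNA, the summit position had a median of -29 bp, quartiles of -56 and 9 bp, and ran from -129 to 154 bp. It was upstream of the 5′ end in 52 of 72 genes, within 100 bp of it in 49 of these, inside the gene in 19 and beyond the 3′ end in 1. Peak calling did not use the strand of a snoRNA. Among the 90 genes with a candidate below the threshold, 33 summits were upstream, 32 inside and 25 downstream, with a median of 56.5 bp. These genes were longer, with a median length of 133 bp against 87.5 bp, and the part of length in the positions was not tested. The median position of thresholded genes was -41 bp for independent genes, -24 bp for the host strand, -21 bp for the opposite strand and -11 bp for genes touching an exon. Summits of replicate 1 at the same 72 genes had a median of -23.5 bp and those of replicate 2 of -29.5 bp.

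**Figure D2:**
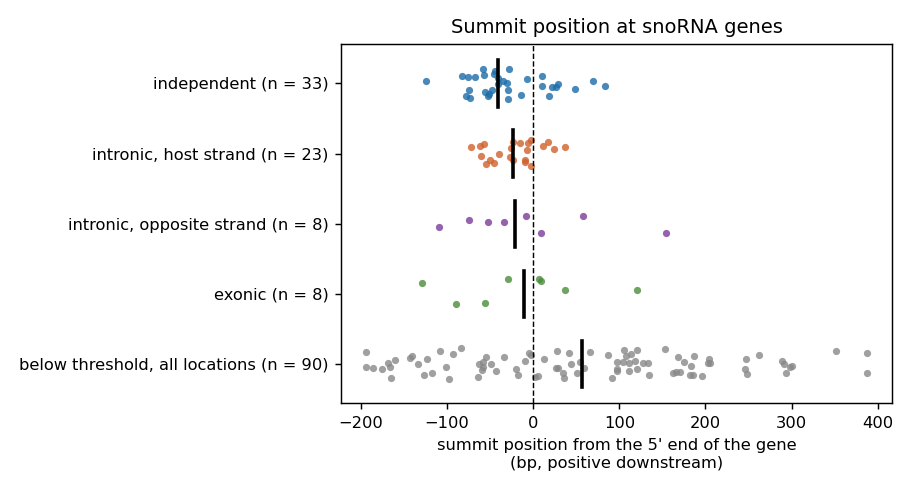
Each point is the best summit of 1 snoRNA gene, placed by its distance in bp from the 5′ end (positive downstream), in rows by location for thresholded genes and in 1 row for genes with a candidate below the threshold; black bars are medians. Thresholded summits gather just upstream of the 5′ end, with 52 of 72 before it, while the 90 below the threshold are spread over both sides.

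The B box word GTTCGANNC, searched on both strands from 100 bp before the 5′ end to 50 bp after the 3′ end, was present at 19 of the 72 thresholded snoRNA genes (26.4%, 16.7 to 38.1). It was present at 2 of 90 genes with a candidate only and at 9 of 184 with none. Windows of equal length at protein-coding 5′ ends held it in 1.78% of cases, and tRNA genes, whose promoters are internal, in 72.2%. In the snoRNA itself it was found at 2 of the 72. GAGACGCA and GCGCCAGC, leading words of an earlier account of these peaks, were present at 1 and 0 of the 72 and in 1.81% and 0.355% of the protein-coding windows.

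Upstream, the box words sat on the strand of the snoRNA, as in the first set of sequences above. The words and this window were chosen after the sequences were seen, so the counts are a description, and a match is not a shown binding site. A word was counted when its first base lay in the 100 bp before the 5′ end. TGGCNNAG was found at 20 of 72 thresholded genes (27.8%), 4 of 90 with a candidate only, 5 of 184 with none, and 0.691% of protein-coding genes. GTTCGANNC was found at 17, 1 and 1 of the same groups and at 0.210% of protein-coding genes, and GTTCNANNC, which includes it, at 26, 9 and 3 and at 1.57%. GTTCNANNC was also upstream of 12 of 129 snRNA genes (9.30%), with 0 of the 15 thresholded snRNA genes among them, and TGGCNNAG of 0 of the 129. In thresholded genes the first base of TGGCNNAG lay at -75 to -52 bp from the 5′ end, with a median of -59.5 bp. That of GTTCNANNC lay at -44 to -5 bp, with a median of -14 bp. Genes with a candidate only had like medians, -55 bp (4 genes, -94 to -50 bp) and -12 bp (9 genes, -64 to -5 bp). In the 12 thresholded genes with both, the spacing from the first to the second had a median of 44 bp and ran from 43 to 52 bp. Of the 14 snoRNA genes with both words, 12 were thresholded. The other 2 had a candidate only, with spacings of 44 and 45 bp.

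**Figure D3:**
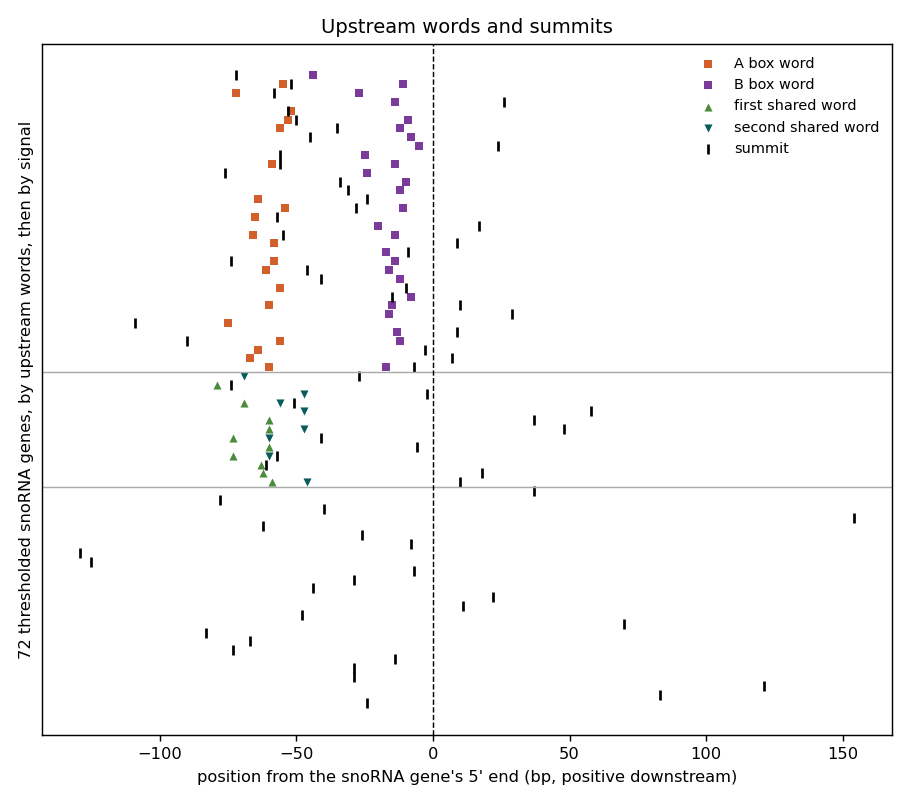
Rows are the 72 thresholded snoRNA genes, grouped by upstream words and ordered by signal within each group; squares mark the first base of the A box word (TGGCNNAG) and B box word (GTTCNANNC), triangles those of GGAACC (first shared word) and TGTCGGC (second shared word), and ticks the summit, by distance in bp from the 5′ end. The A box words line up around a median of -59.5 bp and the B box words around -14 bp.

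Taking either box word as a mark, 34 of 72 thresholded genes carried one, 11 of 90 with a candidate only and 8 of 184 with none. Of the 53 snoRNA genes with a box word upstream, 34 were thresholded (64.2%, 49.8 to 76.9), against 25 of the 253 with none of the words (9.88%, 6.50 to 14.2). All these words, GGAACC and TGTCGGC included, were chosen after the sequences were seen. Contrasts between groups with and without them are therefore partly built in, and the intervals do not cover that choice. Short genes with a box word were thresholded in 20 of 20 cases and longer ones in 14 of 33. Thresholded genes were 12 of the 17 independent genes with a box word, 13 of 21 on the host strand, 5 of 9 on the opposite strand and 4 of 6 touching an exon. Among genes on the host strand with none of the words, 5 of 110 were thresholded (4.55%, 1.49 to 10.3). Signals of thresholded genes with a box word had a median of 261.0, against 204.4 for those with none of the words, and both ranges reached 580.0 because C51F7.3 and C51F7.4 share a summit.

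GGAACC was found upstream of 10 of 72 thresholded snoRNA genes (13.9%, 6.87 to 24.1), 5 of 90 with a candidate only (5.56%, 1.83 to 12.5) and 10 of 184 with none (5.43%, 2.64 to 9.77), and of 0.556% of protein-coding genes. TGTCGGC was found at 8 (11.1%, 4.92 to 20.7), 4 (4.44%, 1.22 to 11.0) and 11 (5.98%, 3.02 to 10.4) of the same groups and at 0.205% of protein-coding genes. For each word the intervals of these snoRNA groups overlapped. Of the 8 snoRNA genes with both words, 5 were thresholded and 3 had no candidate. In the 5 thresholded genes the second word began 13 bp after the first each time. The spacing was also 13 bp in the 3 with no candidate, so it did not set thresholded genes apart. GGAACC was also upstream of 32 of 129 snRNA genes (24.8%), 6 of them among the 15 snRNA genes that were thresholded. Of the 40 snoRNA genes with either word, 13 were thresholded (32.5%, 18.6 to 49.1). No snoRNA gene carried both a box word and 1 of these words.

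**Figure D4:**
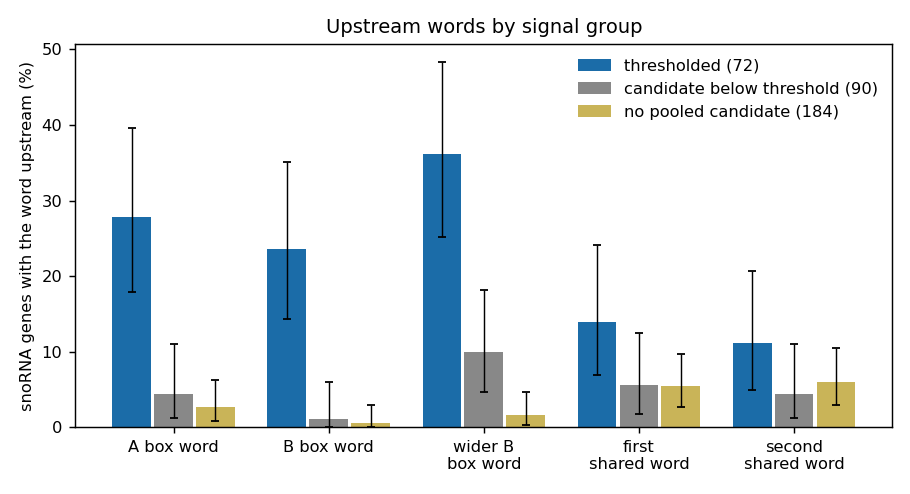
Bars give the percent of snoRNA genes with each upstream word among the 72 thresholded genes, the 90 with a candidate below the threshold and the 184 with no pooled candidate, with exact 95% binomial intervals. The A box word is TGGCNNAG, the B box word GTTCGANNC, the wider B box word GTTCNANNC, and the shared words GGAACC and TGTCGGC; the A box word stands at 27.8% of thresholded genes.

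A run of TTTTT within 50 bp after the 3′ end, on the strand of the snoRNA, was present at 42 of 72 thresholded genes (58.3%, 46.1 to 69.8), 33 of 90 with a candidate only and 66 of 184 with none. After protein-coding genes it was present in 35.7%. Among thresholded genes it followed 29 of the 34 with a box word upstream (85.3%, 68.94 to 95.05), 3 of the 13 with GGAACC or TGTCGGC, and 10 of the 25 with none of the words.

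The replicates placed the strongest snoRNA genes in a similar order. Candidates lay near 166 genes in replicate 1, 167 in replicate 2 and 128 in both, and all 72 thresholded genes had one in both. The thresholded list was made from these same replicates, so its overlap with their candidates is not a separate check of agreement. Shares of all annotated genes near a candidate of each full replicate list are not given here. Across the 128 genes, Spearman's rho of the signals was 0.892 and Pearson's r of their log2 values 0.892, or 0.883 without the 2 genes farthest from the median of replicate 1. These correlations are across genes, which are not independent replicates, and both lists share 1 control alignment. Within the 72 thresholded genes rho was 0.776, and within the 56 others it was 0.447. Among the 945 highest candidates of each replicate there were summits at 72 snoRNA genes in replicate 1 and 67 in replicate 2, with 59 in both. Over all annotated genes these shares were 2.62%, 2.59% and 1.79%, against 20.8%, 19.4% and 17.1% of snoRNA genes. Of the 72 thresholded genes, 59 were in the top of both replicates and 1 in neither.

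**Figure D5:**
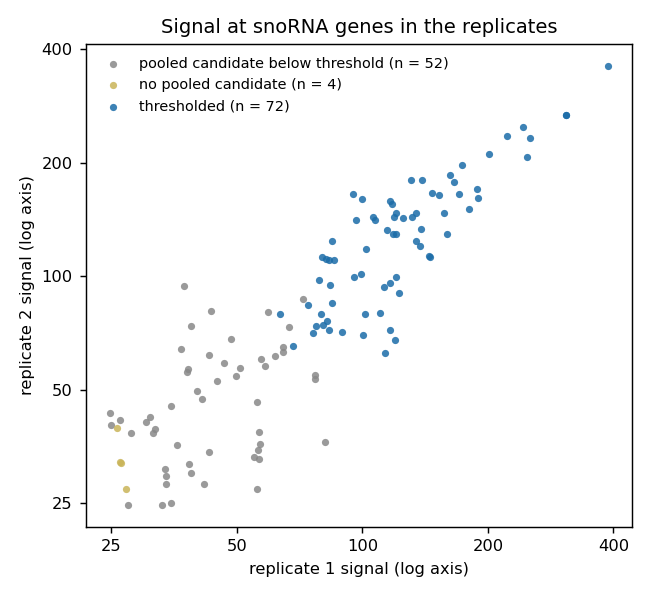
Each point is 1 of the 128 snoRNA genes with a candidate in both replicates, with the signal in replicate 1 on the horizontal and in replicate 2 on the vertical log axis; signal is the peak caller's value and has no stated unit. The thresholded genes occupy the upper right, up to 387.5 and 360.9 at ZK994.7.

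Members close to the threshold had like values on both sides of it. Just inside were F55H12.9, F47G4.9, C14C10.8, T24H7.6 and W04D2.7, with pooled signals of 151.2, 150.4, 148.0, 142.8 and 140.5. Just outside were C05H8.3, W03B1.17, C34E11.20, C16D9.10 and K09E9.5, with 137.8, 134.9, 132.1, 126.9 and 126.5. W04D2.7, in an intron of the innexin gene inx-11, had 68.1 in replicate 1 and 65.2 in replicate 2. C34E11.20 had 37.4 in replicate 1, at rank 11256, and 94.0 in replicate 2, at rank 523, the widest gap in rank among these 10. C34E11.20 and K09E9.5 are both on chromosome X.

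Genes for proteins of the snoRNA particles were examined in the same lists. Of the 8 found in the annotation (fib-1, nol-56, nol-58, snu-13, dkc-1, nola-3, garr-1 and Y48A6B.3), 1 had a thresholded summit in its promoter window, against 2.83% of protein-coding genes, and 6 had a pooled candidate, against 32.7%. The 1 was fib-1, which encodes fibrillarin, the methyltransferase of box C/D particles. Its summit lay at -101 bp from the 5′ end with a pooled signal of 142.5 at rank 876. It ranked 8811 among the candidates of replicate 1, with a signal of 40.4, and 419 among those of replicate 2, with a signal of 101.4.

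Among other small RNA genes, 198 of 612 tRNA genes (32.4%, 28.7 to 36.2) and 15 of 129 snRNA genes (11.6%, 6.66 to 18.5) were thresholded. The snoRNA share of 20.8% (16.7 to 25.5) lay between them. Its interval overlapped that of snRNA genes and not that of tRNA genes. Whole protein-coding genes were thresholded in 3.14% of cases. Pooled candidates were present at 73.9% of tRNA and 42.6% of snRNA genes.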

How the data were processed

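The authors' deposited peak lists on ce11 (the same assembly as WBcel235) were used: candidates of replicate 1, replicate 2 and their pool (30000 each) and the IDR-thresholded list of 945, which were the 945 pooled candidates of highest signal. Column 7 of the deposited lists is a signal and column 9 a −log10 value of the q-value (0.101 to 3.10), per the deposited file descriptions. Not given in the sources used here are the aligner, the peak caller, software versions and the cutoff that IDR used. The files give no read counts, so the depth of the libraries is unknown. A gene took the summit of highest signal within 200 bp. Signals of different lists were not compared in level. Genes came from Ensembl release 115 and sequence from the RefSeq genome of the same assembly. Named genes were the 12 highest, the 3 highest per location, the highest per chromosome, 5 on either side of the threshold, thresholded members of clusters of 3 or more, and particle genes with a thresholded summit. Others were named as examples. The members, lists and words were chosen with earlier results of these data known. Counts used Python 3.11.15, pandas 2.3.3, numpy 2.4.6 and scipy 1.17.1, and the matching code was tested on simulated data. Alternatives changed the distance, the list, the hosts, the cluster gap and the replicate used.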

Additional observations from a re-analysis of the deposited data

How the results depend on the processing

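Of 154 alternative values, 135 stayed within the limits set for them (1.5 times for a count) and 19 moved. The 72 thresholded snoRNA genes became 69 within 100 bp, 81 within 500 bp, 69 by overlap of interval and gene, 54 in the 472 intervals of highest signal, and 51 without summits in promoter windows or near tRNA and snRNA genes. With the highest candidates of 1 replicate in place of the thresholded list the count was 67 to 72. Among snoRNA gene results, the values that moved were clustered genes (3 to 6 within 500 bp), genes touching an exon (8 to 4 in the 472 intervals of highest signal, to 5 without promoter, tRNA and snRNA summits, and to 28 of 92 when hosts of any biotype counted), independent genes (33 to 19 without those summits), intronic genes on the host strand (23 to 14 of 122 with hosts of any biotype), GTTCGANNC (19 to 2 in the snoRNA alone) and Spearman's rho (0.892 to 0.776 in thresholded genes alone), with hosts of ribosomal proteins (0 to 4 within 500 bp), hosts for translation (1 to 0 without those summits) and chromosome X (1 to 2 within 500 bp or without replicate 1). Background counts that moved were protein-coding 5′ windows (244 to 125 within 100 bp, 472 within 500 bp, 120 in the 472 intervals of highest signal and 13 without promoter, tRNA and snRNA summits), tRNA genes (198 to 108 in those 472, and 0 once their own summits were removed) and snRNA genes (15 to 0 likewise). For hosts, the exon and intron counts moved because genes changed class. The cause of the others was not tested. The length limit, the upstream words, the wider box search and the count on chromosome X were added after seeing the data. No paired analysis was possible because there was only 1 group. With no read counts, what depth limits could not be stated.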
